A study of Gallus gallus with 3 samples.

Results

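The circadian clock genes PER2, PER3, CRY1, CRY2, BHLHE40, NFIL3 and CLOCK were followed in breast muscle of Arbor Acres broilers (Gallus gallus), a strain bred for meat. The birds were male and 42 days old. All birds had been kept at 50 ± 3 ppm of atmospheric ammonia, and their 3 libraries, numbered 1 to 3 as titled, form 1 group. Genes were chosen by symbol: a row belonged to a gene when its RefSeq transcript, without version number, carried that symbol in a RefSeq gene table. Rows of 1 gene were summed. Of the 7 genes, 6 were matched, through 10 of 36977 transcripts, and they are 6 of 10663 genes named in this way. No row was matched to CLOCK, so CLOCK was not analysed here. The labels give no time of day for the sampling and do not tie each library to a bird of its own. SDs and p-values therefore cover the spread among the 3 libraries alone, part or all of which may be technical. Libraries of other exposures were not used here, and no value below is an effect of ammonia.

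The clock is a transcription loop that runs in most cells, skeletal muscle included. CLOCK and BMAL1, the product of the gene named ARNTL in the table, form the positive arm and switch on genes through E-box elements. Among these genes are the PER and CRY genes, whose proteins enter the nucleus and repress CLOCK and BMAL1, the negative arm. BHLHE40 binds E-boxes and represses there too. NFIL3 represses through a different element, the D-box, at which TEF and HLF activate, and NR1D2 (REV-ERB beta) represses the ARNTL gene itself. In chicken pineal cells NFIL3 is known as a repressor of PER2.

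The deposited values were read as FPKM, which counts fragments per transcript length and library size, a unit inferred from the values themselves. They sum to 569361, 586193 and 573648 in libraries 1, 2 and 3, read depth is unknown, and values near 0 can be failed estimates. Library 1 stood apart from the others. A filter of 1 FPKM or more in 2 libraries or more kept 6595 genes. Over these, log2(FPKM + 1) levels of library 1 had a Pearson r of 0.951 with library 2 and 0.951 with library 3, while libraries 2 and 3 had one of 0.973, a description over genes, which are not independent replicates. Set against the mean of the remaining pair of libraries, the median gene lay at 0.15 in library 1, -0.04 in library 2 and -0.09 in library 3 on that scale. The tissue label was checked by fibre markers. Of 9 listed, 5 were matched and all 5 passed the filter, led by the fast troponin T gene TNNT3 at 11557, 17041 and 18325 FPKM, while the myoglobin gene MB was at 1.82, 9.32 and 6.36 FPKM.

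Of the 6 matched clock genes, 5 were expressed above 1 FPKM in every library, and all 5 were highest in library 1. These were PER2, CRY1, CRY2, BHLHE40 and NFIL3. PER3 was near 0 throughout. Library 1 held the highest value for 51.1% of all genes kept, so the order alone says little, and the sizes below are to be read against the whole table. The clock genes were chosen with earlier results of these data known, so that reading is a description and no test. In bulk tissue, fewer cells of a type and less RNA per cell cannot be told apart.

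PER2, a period gene that light induces in the chicken pineal gland, was listed at 10.4 FPKM in library 1, 2.48 FPKM in library 2 and 2.83 FPKM in library 3. Library 1 was 4.20-fold above library 2 and 3.69-fold above library 3, whereas libraries 2 and 3 lay close together. The mean was 5.25 ± 4.50 FPKM (SD, n = 3), so the SD was nearly as large as the mean. On the log2(FPKM + 1) scale library 1 lay 1.65 above the mean of the other 2, and 1.15% of the genes kept lay as far up or farther.

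PER3, the other period gene of the list, was listed at 0.138, 0.394 and 0.101 FPKM in libraries 1, 2 and 3, summed over 5 predicted transcripts. It did not pass the filter of 1 FPKM in at least 2 libraries. Its highest library was library 2, unlike the other 5 genes, but its transcripts did not keep 1 order. The highest of the 5 in library 2, at 0.215 FPKM, was also the highest in library 1, at 0.053 FPKM. In library 3 it was at 0.005 FPKM, below another at 0.053 FPKM. Levels this low give no order between libraries, and other transcripts of the gene may carry no name here, so the sums are lower bounds.

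The cryptochromes were both well expressed. CRY1, the stronger repressor of the pair in mammals, was listed at 62.3, 24.4 and 32.9 FPKM in libraries 1, 2 and 3. Library 1 was 2.56-fold above library 2 and 1.89-fold above library 3. CRY2 was listed at 33.7, 19.0 and 18.0 FPKM, a ratio of 1.77 to library 2 and 1.87 to library 3, the narrowest spread of the 5 genes. CRY1 exceeded CRY2 in every library, by 1.85-fold, 1.28-fold and 1.83-fold. The mean log2 ratio was 0.70 ± 0.30 (SD, n = 3). Its two-sided p by an exact sign-flip permutation was 0.25, the smallest that 3 libraries allow. For that reason none of the 18 ratios computed here could pass 0.05, whatever its size.

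BHLHE40 (DEC1), a repressor that also responds to hypoxia and to hormones, had the highest level of the 6 genes. It was listed at 129 FPKM in library 1, 59.7 FPKM in library 2 and 41.3 FPKM in library 3. Library 1 was 2.16-fold above library 2 and 3.12-fold above library 3, and here library 2 also lay 1.45-fold above library 3. In library 1 the gene stood above 94.7% of the genes kept, against 88.3% in library 2 and 84.0% in library 3. NFIL3 (E4BP4) varied most, at 44.4, 9.13 and 11.6 FPKM. Library 1 was 4.87-fold above library 2 and 3.82-fold above library 3, its log2(FPKM + 1) level lay 2.01 above the mean of the other 2, and 0.607% of the genes kept lay as far up or farther.

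**Figure D1:**
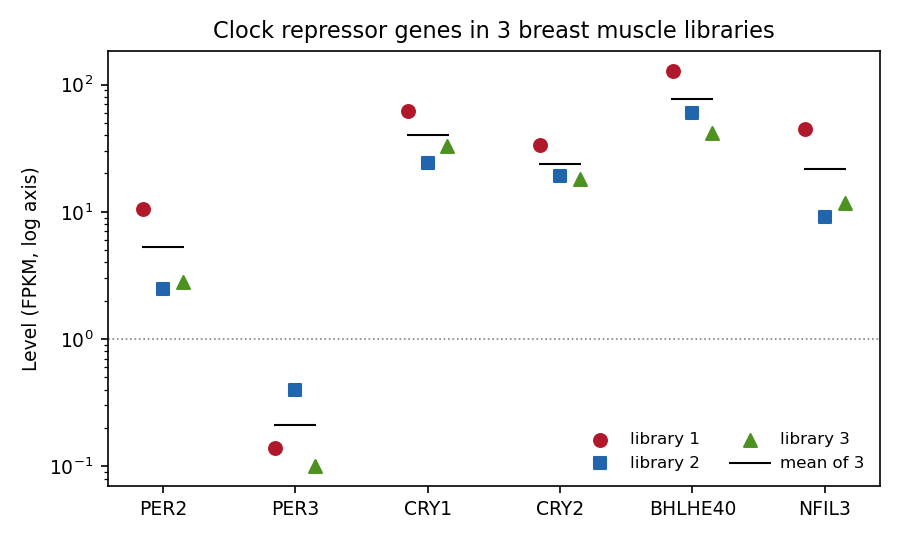
Levels of the 6 matched genes in FPKM (log axis) in libraries 1, 2 and 3, 1 point per library, with a bar at the mean of 3 and a dotted line at 1 FPKM. For PER2, CRY1, CRY2, BHLHE40 and NFIL3 the point of library 1 is the highest, while PER3 stays at or below 0.394 FPKM in every library.

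By mean level per length the order was BHLHE40 at 76.6 ± 46.2 FPKM, CRY1 at 39.8 ± 19.9 FPKM, CRY2 at 23.6 ± 8.79 FPKM, NFIL3 at 21.7 ± 19.7 FPKM, PER2 at 5.25 ± 4.50 FPKM and PER3 at 0.211 ± 0.16 FPKM (SD, n = 3 each). Each gene but PER3 rests on 1 named transcript. Transcripts without a name may belong to any of them, so the order holds for named transcripts only. It also holds only if the inferred unit, FPKM, is right. Neighbours were compared within libraries. BHLHE40 exceeded CRY1 in 3 of 3 libraries, with a mean log2 ratio of 0.89 ± 0.50. CRY2 and NFIL3 changed places: CRY2 was at 0.759 of NFIL3 in library 1, but 2.08-fold above it in library 2 and 1.55-fold above it in library 3, so their order does not hold beyond the spread. PER2 exceeded PER3 in every library, with a mean log2 ratio of 4.57 ± 1.80. The steadiest pair was NFIL3 and PER2. Each changed by more than 3-fold between library 1 and the others, but NFIL3 was 4.26-fold, 3.67-fold and 4.12-fold above PER2 in libraries 1, 2 and 3, a mean log2 ratio of 2.003 ± 0.111 (SD, n = 3). This pair was singled out after its values were seen.

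Differences between single libraries were called past 2-fold on the log2(FPKM + 1) scale, with no test, since each side holds 1 library. Because the genes were chosen with earlier results of these data known, the shares of all genes beside theirs are a description only. PER2, CRY1, BHLHE40 and NFIL3, 4 of the 5 genes kept, were past 2-fold above in library 1 against library 2, where 5.2% of all genes kept were. With median-of-ratios scaling BHLHE40 was not, and PER2, CRY1 and NFIL3, 3 of 5, were. PER2, BHLHE40 and NFIL3, 3 of 5, were past 2-fold above in library 1 against library 3, where 5.96% of all genes were. Between libraries 2 and 3 none of the 5 was past 2-fold in either direction. Among all genes kept 2.43% were past 2-fold above in library 2 and 1.5% above in library 3.

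The median of the 5 genes lay 1.36 above the mean of the other 2 libraries in library 1, -0.87 in library 2 and -0.72 in library 3, against the medians of all genes of 0.15, -0.04 and -0.09. The values of libraries 2 and 3 rest on library 1. Without it they were -0.14 and 0.14, equal in size because only 2 libraries remain. Without library 2, library 1 lay at 1.58, and without library 3 at 1.32. The choice of the 5 genes with earlier results known limits the comparison with all genes here too.

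**Figure D2:**
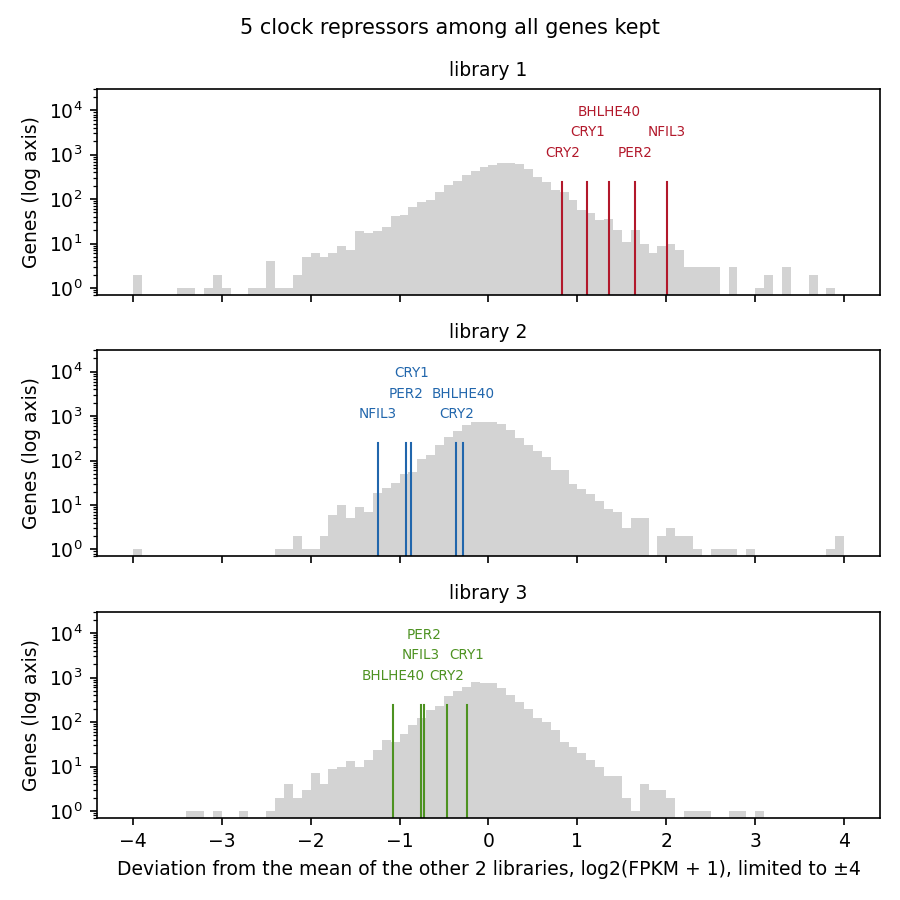
Number of genes (log axis) by their log2(FPKM + 1) difference between 1 library and the mean of the remaining pair, for all 6595 genes kept, 1 panel per library, with lines at PER2, CRY1, CRY2, BHLHE40 and NFIL3. In library 1 the 5 lines lie between 0.83 and 2.01, in the upper tail, and in libraries 2 and 3 all 5 lie below 0.

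The spread of each gene over the 3 libraries was also set against the trend of all genes of similar level, by a variance test in limma with Benjamini-Hochberg adjustment over all 6595 genes. It called 0 genes, or 0%, with a smallest adjusted p of 0.584. At an unadjusted p under 0.05 there were 372 genes, against 330 expected at that threshold. The trend was fitted to these same variances, so this comparison cannot show whether genes had excess spread. NFIL3 had an unadjusted limma p of 0.0083 (adjusted p = 0.681), PER2 of 0.024 (adjusted p = 0.735), BHLHE40 of 0.030 (adjusted p = 0.784), CRY1 of 0.055 (adjusted p = 0.9003) and CRY2 of 0.142 (adjusted p = 0.959). None of the 5 passed. With 2 residual degrees of freedom the test has low power, so this does not show that their spread was ordinary. Over all genes, the test called 26 without library 2 and 30 without library 3, and none of the 5 genes was among them.

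The positive arm was next set beside the negative arm. ARNTL stood in for CLOCK, a choice made after CLOCK was found unmatched. ARNTL was listed at 15.3 FPKM in library 1, 4.43 FPKM in library 2 and 6.15 FPKM in library 3, so it too was highest in library 1, by 3.46-fold over library 2 and 2.49-fold over library 3. Its limma p was 0.036 unadjusted and 0.806 adjusted. Thus the level of this activator gene was high in the same library as those of PER2, CRY1, CRY2 and BHLHE40, and low in the same libraries. ARNTL2, a second BMAL gene, was nearly level at 3.38, 2.95 and 2.91 FPKM. NPAS2, which can take the place of CLOCK in mammals, was at 0.218, 0.297 and 0.384 FPKM, under the filter, and RORA and RORB, activators of ARNTL, were at or below 0.061 FPKM in every library.

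Ratios within a library do not depend on scaling between libraries, but they cover named transcripts alone. Levels of different genes can be compared only if the inferred unit, FPKM, is right. The sum of PER2, PER3, CRY1 and CRY2 was 6.95-fold, 10.4-fold and 8.75-fold above ARNTL in libraries 1, 2 and 3, so the excess was smallest in library 1, where the sum was highest. The mean log2 ratio was 3.10 ± 0.29 (SD, n = 3), above 0 in 3 of 3 libraries, with an exact sign-flip permutation p of 0.25, also 0.25 after Benjamini-Hochberg adjustment over 7 ratios to ARNTL. Against the sum of ARNTL, ARNTL2 and NPAS2 the mean log2 ratio was 2.53 ± 0.05 (SD, n = 3). That spread was far narrower, so for the PER and CRY sum the difference in excess between libraries holds only against ARNTL alone. Single genes differed. With ARNTL, ARNTL2 and NPAS2 summed, the SD fell for CRY1, CRY2, BHLHE40 and PER3. It rose for PER2 from 0.28 to 0.48 and for NFIL3 from 0.33 to 0.55. CRY1 lay 4.06-fold, 5.50-fold and 5.35-fold above ARNTL, and CRY2 2.20-fold, 4.29-fold and 2.93-fold. BHLHE40 lay 8.41-fold, 13.5-fold and 6.71-fold above it, and NFIL3 2.90-fold, 2.06-fold and 1.89-fold. PER2 was the lower gene of its pair, at 0.681, 0.561 and 0.460 of ARNTL. Every one of these ratios kept its sign in all 3 libraries, and each of the 7 had the same exact permutation p of 0.25.

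**Figure D3:**
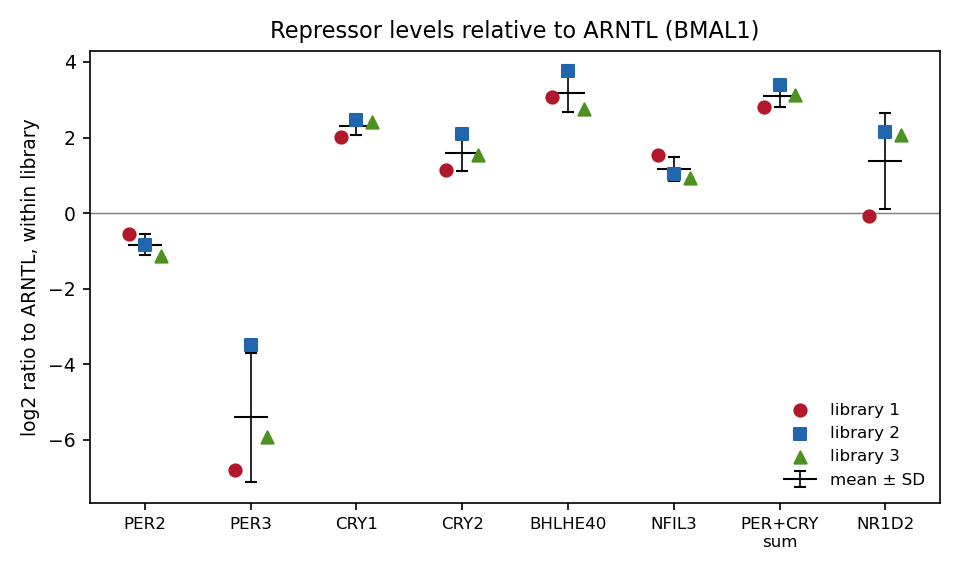
Log2 ratio to ARNTL within each library for the 6 genes, for the sum of the PER and CRY genes and for NR1D2, 1 point per library, with mean and SD over 3 libraries. BHLHE40, CRY1, CRY2, NFIL3 and the sum lie above 0 in every library, PER2 and PER3 lie below 0, and NR1D2 lies near 0 in library 1 but above 2 in libraries 2 and 3.

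NR1D2 went the other way. It was listed at 14.5 FPKM in library 1, 19.6 FPKM in library 2 and 25.9 FPKM in library 3. NR1D2 was thus lowest in library 1, as were 25.8% of all genes kept. ARNTL, the gene that its protein is known to repress, was highest there, as were 51.1%. A link between these genes was not tested. NR1D2 stood at 0.949 of ARNTL in library 1, but 4.42-fold above it in library 2 and 4.22-fold above it in library 3. Its own spread was modest, with an unadjusted limma p of 0.223 (adjusted p = 0.989), and neither pair with library 1 was past 2-fold. CRY1 was 4.28-fold above NR1D2 in library 1, against 1.24-fold and 1.27-fold in libraries 2 and 3.

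Among the D-box factors, the activator genes did not follow NFIL3 alike. HLF was listed at 11.9, 5.29 and 4.69 FPKM in libraries 1, 2 and 3 and was past 2-fold above in library 1 against each of the other libraries. With median-of-ratios scaling it was past 2-fold against neither, at log2 differences of 0.90 and 0.996. TEF was at 20.5, 15.7 and 21.2 FPKM, close in libraries 1 and 3. The repressor thus stood 2.16-fold above TEF in library 1 but at 0.583 and 0.549 of TEF in libraries 2 and 3, and 3.74-fold, 1.73-fold and 2.48-fold above HLF.

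Apart from the 7 genes, the wider clock list held 29 genes, of which 20 were matched and 14 passed the filter. Of these 14, 11 were highest in library 1, where 51.1% of all genes kept were, 3 in library 3 and none in library 2. Past 2-fold above in library 1 were 5.2% of all genes kept against library 2 and 5.96% against library 3. ARNTL and HLF were past 2-fold above in library 1 against each of the other libraries, and no other of the 14 was past 2-fold in any pair. With median-of-ratios scaling this was 1 gene, ARNTL, against each library. The median deviation of the 14 in library 1 was 0.42, against 0.15 for all genes. The list's modifiers include enzymes that act on clock proteins. CSNK1A1, a casein kinase, had the highest level of them at 86.1, 72.7 and 69.5 FPKM, and DDB1, part of a ubiquitin ligase, followed at 51.2, 33.8 and 36.4 FPKM. CSNK1E, which phosphorylates PER proteins, was at 20.7, 11.97 and 12.7 FPKM. The gene with the synonym CRY4, a bird cryptochrome, was listed at 1.86, 0.604 and 0.934 FPKM and did not pass the filter.

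**Figure D4:**
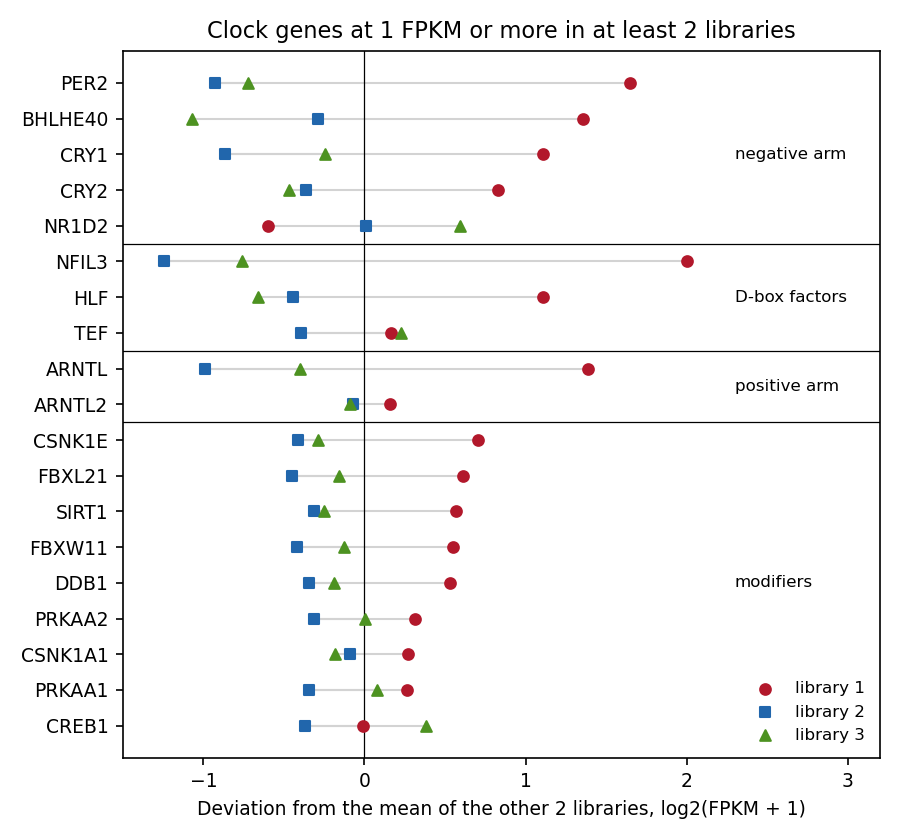
Difference in log2(FPKM + 1) between each library and the mean of the remaining pair for the 19 clock genes at 1 FPKM or more in at least 2 libraries, grouped by role, 1 point per library. NFIL3, PER2, ARNTL, BHLHE40, CRY1 and HLF reach beyond 1 in library 1, the modifiers reach at most 0.70, and NR1D2 is lowest in library 1.

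2 lists of response genes were set beside the clock genes, with 51.1% of all genes kept highest in library 1 as the background. Genes known to respond to glucocorticoids were 9 matched of 18 listed, all 9 kept, and 7 were highest in library 1 and 2 in library 3. Their summed level was 406, 116 and 138 FPKM in libraries 1, 2 and 3, led by GLUL at 108, 31.1 and 23.4 FPKM, SGK1 at 59.6, 25.9 and 44.1 FPKM and FKBP5 at 76.0, 7.63 and 8.97 FPKM. Immediate early genes were 10 matched of 18, 9 kept, and 8 of these were highest in library 1 and 1, NR4A3, in library 3. Their summed level was 471, 209 and 173 FPKM, led by BTG2 at 205, 84.1 and 72.4 FPKM, JUN at 59.1, 45.2 and 21.0 FPKM and DUSP1 at 32.3, 27.6 and 21.0 FPKM. Median deviations in library 1 were 1.24 for the 9 glucocorticoid genes and 1.39 for the 9 immediate early genes kept. The 5 clock genes had 1.36, so a deviation of that size was not particular to them. Of the glucocorticoid genes, 6 were past 2-fold above in library 1 against library 2 and 4 against library 3. Of the immediate early genes, 7 were so against each. Among all genes kept these shares were 5.2% and 5.96%. The part of either list in the clock values was not tested.

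Markers of other cell types did not share 1 order. Of all genes kept, 51.1% were highest in library 1, 26.3% in library 2 and 22.6% in library 3, and 25.8% were lowest in library 1. Adipocyte markers, 6 matched of 6, summed to 278, 171 and 104 FPKM in libraries 1, 2 and 3, led by FABP4. Of the 6, 5 were highest in library 1 and 1, ADIPOQ, in library 3. Macrophage markers, 6 of 8, summed to 392, 339 and 165 FPKM, most of it CD74 at 325, 270 and 136 FPKM, and 3 of the 6 were highest in library 2. All 6 were lowest in library 3, where 39.4% of all genes kept were. Satellite cell markers, 3 of 3, summed to 172, 119 and 100.4 FPKM, most of it MYOD1 at 153, 109 and 94.4 FPKM. MYF5 was at 16.4, 8.10 and 4.04 FPKM, and PAX7 was low, at 2.43, 1.71 and 1.96 FPKM. Fibroblast markers, 6 of 7 and led by COL3A1, summed to 400.0, 875 and 651 FPKM, and 4 of the 6 were lowest in library 1. Fibre markers summed to 36401, 44762 and 45133 FPKM, and 4 of 5 were lowest in library 1. Endothelial markers, 5 of 6, summed to 85.7, 52.6 and 57.5 FPKM, most of it PLVAP at 57.0, 30.1 and 30.8 FPKM. Of the 5, 3 were highest in library 1 and 2, CDH5 and KDR, in library 3. Smooth muscle markers, 3 of 5 and led by TAGLN, summed to 12.8, 21.2 and 21.6 FPKM. Red blood cell markers, 4 of 6, summed to 70.1, 409 and 291 FPKM, most of it CA2 at 45.7, 355 and 189 FPKM. Of the globin genes, HBBA was highest in library 3, at 24.3, 54.1 and 98.7 FPKM, HBA1 was near 0 in libraries 1 and 2 and at 3.10 FPKM in library 3, and HBAD was at or near 0 in every library. Nerve markers, 4 of 5, summed to 8.84, 94.7 and 15.9 FPKM, nearly all of it UCHL1, with S100B near 0. Their part in the clock values was not tested.

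The genes whose pattern was most like that of the 6 repressor genes were sought among 4299 genes with a mean of at least 5 FPKM. All genes on the clock, response and marker lists were left out, so their absence below is no result. Likeness was the Euclidean distance, over the 3 libraries, between a gene's centred log2(FPKM + 1) profile and the mean profile of the 6, which was 0.76, -0.37 and -0.38. The nearest were IFNGR1, an interferon gamma receptor subunit, at a distance of 0.038, CHRNG, an acetylcholine receptor subunit, at 0.042, NMT2, a myristoyltransferase, at 0.053, FZD2, a Wnt receptor, at 0.060, and VAPA, a membrane contact protein, at 0.063. IFNGR1 was listed at 13.9, 5.999 and 6.01 FPKM and VAPA at 77.2, 33.5 and 35.4 FPKM. The 6 genes themselves lay farther from their own mean profile, between 0.255 for CRY2 and 1.06 for PER3, and the median candidate lay at 0.880. The nearest genes were picked for a small distance, so that difference is no result. Of the clock genes left out, ARNTL lay at 0.354 and NR1D2 at 1.45. With the profile of the 5 genes that passed the filter, PER3 left out, 0 of these 5 nearest genes stayed among the nearest 5, which were then led by ALDH6A1 at 0.029, so the named genes depend on PER3. That profile was 0.93, -0.49 and -0.44.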

How the data were processed

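Breast muscle mRNA of 3 libraries was analysed. Per the labels' protocols, RNA was isolated with TRIzol, polyadenylated RNA was taken on oligo(dT) beads, and Illumina libraries were made. CASAVA 1.7, Bowtie2 and HTSeq are listed, without roles, in the submitters' processing notes. The authors deposited 1 normalized value per transcript, with no unit in the file headers, and these values were read as FPKM, an inference. Genome build, annotation and the program behind them: not given in the sources used here.

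Transcripts were named through a RefSeq gene table of assembly GRCg7b (names only); 13188 of 36977 matched (35.7%), and those without a name entered only the library totals. Genes reaching 1 FPKM in 2 libraries or more were kept and taken as log2(FPKM + 1), which understates differences of low genes. Spread was tested in limma 3.58.1 (R 4.3.3) on the variance against its robust trend, F tail with the common prior df, adjusted p under 0.05 as the call. The test was also run on simulated data that had the same SD for all genes, unlike these data. In that run limma's gene-wise prior df hid outlying genes, and the common prior df was used for that reason. The run cannot show how the test performs here. Ratios were tested by an exact sign-flip permutation test (11 ratios outside the 7 to ARNTL). The members and lists were chosen with earlier results of these data known.

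Genes named were all members, every clock list gene past 2-fold or among the highest of its role, the 3 highest of each response list, the highest of each marker list, and the 5 nearest profiles. Others were named after their values were seen: NR1D2, NR4A3, MB, HBBA, HBA1, HBAD, ALDH6A1, S100B, NPAS2, RORA, RORB, CSNK1E, CRY4, CDH5, KDR, ADIPOQ, MYF5 and PAX7. Synonyms were accepted for clock genes only. 1 further clock gene was left out of the lists and is not reported here. The planned ratio to CLOCK and the planned promoter motif search were not run, since no row was matched to CLOCK and no sequence was used here.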

Additional observations from a re-analysis of the deposited data

How the results depend on the processing

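The alternatives were pseudocount 0.1, no filter, a filter of 5 FPKM, median-of-ratios scaling, curated transcripts only, the highest transcript alone, and each library left out. The counts of clock genes past 2-fold stayed within 1.5 times of the reported ones. Without each library in turn, the median deviation of the 5 clock genes ranged from 1.32 to 1.58 in library 1, from -1.32 to -0.14 in library 2 and from -1.58 to 0.14 in library 3. With 2 libraries left, their medians are mirror values. A turn of sign in library 2 or 3 without library 1 was thus fixed in advance. The limma variance test called 0 to 30 genes, none of them among the 5 clock genes kept. The cause of the change in calls was not tested. The mean log2 ratio of the PER and CRY sum to ARNTL ranged from 2.96 to 3.26 when libraries were left out. It was 2.53 with ARNTL, ARNTL2 and NPAS2 summed, where its SD was 0.05, against 0.29 with ARNTL alone. The alternatives for ratios to ARNTL, the profile without PER3 and the rescaled pair differences of HLF and ARNTL were chosen after seeing the data. No paired analysis was possible because all libraries form 1 group. No counting interval is given, as the files hold no read depth.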

Other observations

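Genes known from rodent muscle as outputs of the clock were also listed. Of 14 listed, 11 were matched and 10 passed the filter. Of the 10, 7 were highest in library 1, where 51.1% of all genes kept were. The other 3 were highest in library 3, where 22.6% of all genes kept were. These counts are near those shares and are no result about the list. Highest by level was the mitochondrial carrier gene UCP3, with 481, 146 and 110.2 FPKM in libraries 1, 2 and 3. MYOD1, the myogenic factor, was at 153, 109 and 94.4 FPKM. KLF15, a transcription factor of amino acid and lipid metabolism, was at 64.7, 13.2 and 8.70 FPKM. PDK4, which inhibits pyruvate dehydrogenase and is also on the glucocorticoid list, was at 48.2, 12.5 and 10.2 FPKM.

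UCP3, KLF15, PDK4 and NOCT were past 2-fold above in library 1 against library 2, where 5.2% of all genes kept were. The first 3 of these were so against library 3 as well, where 5.96% were. NOCT, the nocturnin gene, was at 35.8, 9.67 and 24.7 FPKM. It was also past 2-fold above in library 3 against library 2, where 1.5% of all genes kept were. TFRC, the transferrin receptor gene, was lowest in library 1, at 6.85, 12.7 and 14.0 FPKM. PDK4, NOCT and TFRC were named after their values were seen.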
